A study of Danio rerio with 8 samples.

Results

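Endocardial and valve genes were described in kdrl-positive cells of sf3b1 mutant zebrafish embryos. They were taken as the rows of the count table whose Ensembl gene carries the symbol nfatc1, gata4, gata5, gata6, has2, hapln1a, hapln1b, hand2, vcana or vcanb, or one of these symbols without its paralogue letter. The 10 symbols led to 11 of the 31901 genes in the table, and all 11 passed the filter on low counts. The name HAPLN1 stands at 2 identifiers (ENSDARG00000068516 and ENSDARG00000102395) beside hapln1a itself, and the table of names does not say which of them is hapln1b. The cells came as 4 libraries from sf3b1 mutants and, as their controls, 4 libraries from siblings, all at 28 hours post fertilization. sf3b1 encodes a subunit of the U2 snRNP, which recognises the branch point of introns. The mutant allele, the genotype of the siblings, the embryos pooled for a library and the clutches behind the replicates are not stated in the labels. The table's label, kdrlgfp, points to a GFP reporter of kdrl as the sort signal, but the labels do not describe a transgene. The p-values therefore measure only the spread between these libraries, which may be technical.

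The endocardium is the endothelium that lines the heart, and it expresses kdrl like vessel endothelium. Its transcription factor Nfatc1 is switched on by the calcium-dependent phosphatase calcineurin, while Gata4, Gata5, Gata6 and Hand2 act in heart precursors, heart muscle, endoderm and other lateral mesoderm as well. Valves form where the endocardium lies over a cardiac jelly made of hyaluronan, which Has2 synthesises, of versican, the large proteoglycan that binds hyaluronan, and of link proteins of the Hapln family, which hold versican and hyaluronan together. In zebrafish, parts of this matrix are also made by heart muscle, notochord and mesenchyme. The comparison of mutant with sibling libraries asks which of these transcripts differ in sorted cells when the splicing factor is mutated.

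Library totals ran from 10035886 to 13277963 counts. CPM here means counts scaled to library size after TMM normalization. Log2 fold changes are mutant over sibling ± SE, and a gene passed at an adjusted p under 0.05 in edgeR's quasi-likelihood test over 18289 genes. The mutated gene SF3B1 (ENSDARG00000056138) averaged 162.8 ± 17.7 CPM in the mutants, against 297.3 ± 60.5 CPM in the siblings (SD, n = 4 each; log2 fold change -0.87 ± 0.166, edgeR adjusted p = 0.00168). In a principal component analysis mutant replicate 4 and sibling replicate 2 lay far from their own groups on the second component. Fewer cells of a type and less RNA per cell cannot be told apart in such bulk libraries.

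The versican gene vcana, both genes named HAPLN1 and the transcription factor gene GATA6 rose in the mutants. Of the 11 genes, 4 rose, 0 fell and 7 did not pass (36.4% called). Over all genes tested 21.3% were called, 9.92% higher and 11.4% lower. The 11 genes were chosen with earlier results of these data known, so these shares are given as a description. The median log2 fold change of the 11 was 0.31, against 0.00 over all genes tested. With DESeq2 the counts were 4 higher and 1 lower, and at an unadjusted p under 0.05 edgeR put 1 gene, NFATC1, lower. The same 4 risers were those whose mutant and sibling values did not overlap, which held for 26.7% of all genes tested (12.6% higher in the mutants and 14.1% lower). Without mutant replicate 4 and sibling replicate 2 together, 3 rose and 0 fell.

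**Figure D1:**
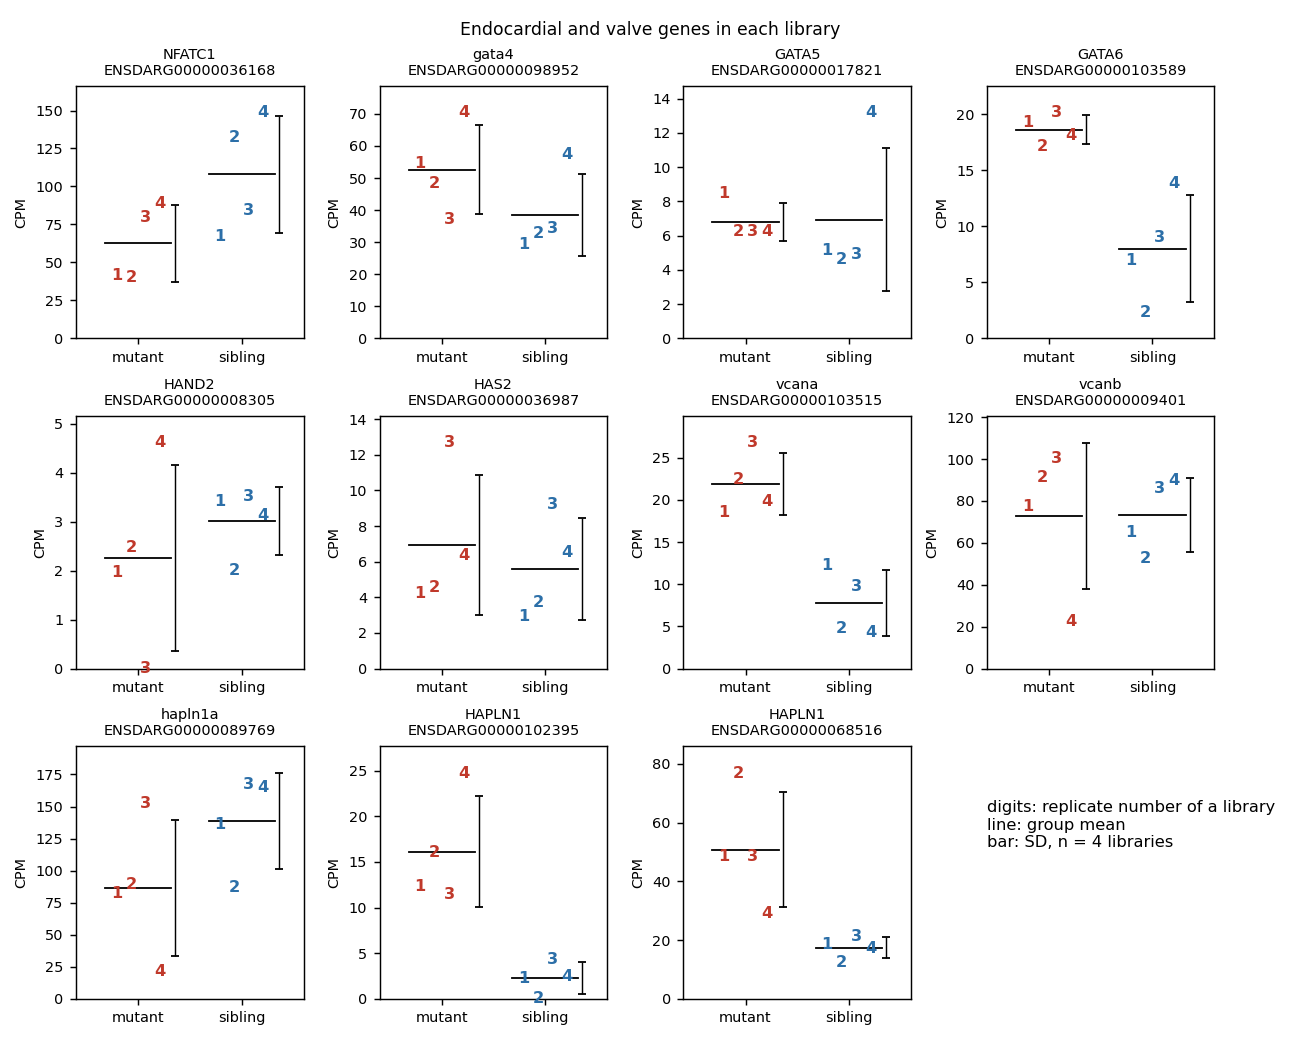
Level of each of the 11 genes in CPM (vertical axis, linear from 0) in mutant (left) and sibling (right) libraries, each digit being 1 library by its replicate number, with the group mean as a line and the SD as a bar. Both HAPLN1 genes, vcana and GATA6 have all mutant libraries above all sibling libraries, and mutant replicate 4 is the lowest library for hapln1a and vcanb.

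NFATC1 (ENSDARG00000036168), the calcineurin-activated factor of the endocardium, stood at 41.34, 40.21, 79.58 and 88.85 CPM in mutant replicates 1 to 4, against 66.90, 132, 84.42 and 148.5 CPM in sibling replicates 1 to 4. Both low mutant libraries lay below every sibling library, while the other mutant libraries overlapped with the sibling range. The log2 fold change was -0.79 ± 0.304 (edgeR adjusted p = 0.0841), so the difference did not pass. It passed as a fall without mutant replicate 4 (-1.01, edgeR adjusted p = 0.0321) and without sibling replicate 1 (-0.96, edgeR adjusted p = 0.0385). DESeq2 also called it lower (-0.77, adjusted p = 0.047).

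GATA6 (ENSDARG00000103589), a zinc finger factor of heart and endoderm precursors, stood at 19.23, 17.11, 20.14 and 18.08 CPM in the mutants, against 6.91, 2.29, 8.97 and 13.82 CPM in the siblings. The mutant libraries lay close together and above every sibling library, and sibling replicate 2 was the lowest. The log2 fold change of 1.22 ± 0.414 passed narrowly (edgeR adjusted p = 0.049). The call was lost on leaving out any single library except sibling replicate 4. Over these 8 fits the log2 fold change lay between 0.89 and 1.61 and the edgeR adjusted p between 0.0168 and 0.115.

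The other GATA factors did not pass. gata4 (ENSDARG00000098952) stood at 54.55, 48.44, 37.20 and 70.36 CPM in mutant libraries, against 29.34, 32.73, 34.42 and 57.20 CPM in sibling libraries. Every mutant library lay above sibling replicates 1 to 3, and mutant replicate 4 alone lay above sibling replicate 4 (log2 fold change 0.45 ± 0.249, edgeR adjusted p = 0.231). GATA5 (ENSDARG00000017821), which acts in endoderm and heart precursors, stood at 8.44, 6.24, 6.23 and 6.25 CPM in the mutants, against 5.11, 4.58, 4.89 and 13.17 CPM in the siblings. Here sibling replicate 4 was above all other libraries and the remaining siblings were below all mutants (-0.03 ± 0.444, edgeR adjusted p = 0.972). Sibling replicate 4 was thus the highest sibling library for all of gata4, GATA5 and GATA6. Without it the GATA5 difference was 0.48, which did not pass either (edgeR adjusted p = 0.584).

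The bHLH factor gene HAND2 (ENSDARG00000008305), expressed in heart, fin and pharyngeal arch precursors, was near the lower end of what these libraries can measure. It had 25, 31, 0 and 56 counts in mutant replicates 1 to 4, against 34, 21, 43 and 39 counts in sibling replicates 1 to 4. The 0 counts in mutant replicate 3 allow a level of up to 0.288 CPM, from counting error only. The log2 fold change was -0.41 ± 0.98 (edgeR adjusted p = 0.827). With an SE of this size, at the spread seen between these libraries, a difference of 2-fold in either direction could not be detected.

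HAS2 (ENSDARG00000036987), the hyaluronan synthase of the cardiac jelly, stood at 4.22, 4.56, 12.66 and 6.33 CPM in the mutants, against 2.90, 3.72, 9.22 and 6.51 CPM in the siblings. Replicate 3 was the highest library in both groups, and the groups overlapped. The log2 fold change was 0.31 ± 0.511 (edgeR adjusted p = 0.742), and its sign turned without mutant replicate 3 (-0.15).

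The versican genes differed from each other. vcana (ENSDARG00000103515) stood at 18.52, 22.46, 26.75 and 19.81 CPM in the mutants, against 12.22, 4.77, 9.79 and 4.26 CPM in the siblings. It rose by a log2 fold change of 1.50 ± 0.357 (edgeR adjusted p = 0.00753), or 2.82-fold, with every mutant library above every sibling library. vcanb (ENSDARG00000009401) stood at 77.45, 91.29, 100.1 and 22.52 CPM in the mutants, against 65, 52.57, 85.89 and 89.65 CPM in the siblings. Mutant replicate 4 was the lowest of all libraries, and the difference of -0.01 ± 0.357 (edgeR adjusted p = 0.99) changed sign with the scaling. Without mutant replicate 4 it was 0.29 (edgeR adjusted p = 0.379).

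Link protein genes differed likewise. HAPLN1 (ENSDARG00000068516) stood at 48.53, 76.82, 48.42 and 29.18 CPM in the mutants, against 18.53, 12.50, 21.12 and 17.27 CPM in the siblings. It rose 2.92-fold (log2 fold change 1.55 ± 0.281, edgeR adjusted p = 0.00119), and the lowest mutant library, replicate 4, was still above every sibling library. The second HAPLN1 gene (ENSDARG00000102395) stood at 12.27, 16.07, 11.41 and 24.74 CPM in the mutants, against 2.203, 0, 4.323 and 2.49 CPM in the siblings. It rose by 2.82 ± 0.717 on the log2 scale (edgeR adjusted p = 0.0125), here with mutant replicate 4 as the highest library. The 0 counts in sibling replicate 2 allow up to 0.286 CPM, and without this library the log2 fold change was 2.39. Both HAPLN1 calls and that of vcana held on leaving out each library in turn.

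hapln1a (ENSDARG00000089769) stood at 82.45, 89.29, 152.2 and 21.62 CPM in the mutants, against 135.7, 87.02, 166.9 and 165.2 CPM in the siblings. The groups overlapped, with mutant replicate 4 the lowest library as for vcanb. The log2 fold change of -0.68 ± 0.477 did not pass (edgeR adjusted p = 0.382), and without mutant replicate 4 it was -0.36.

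**Figure D2:**
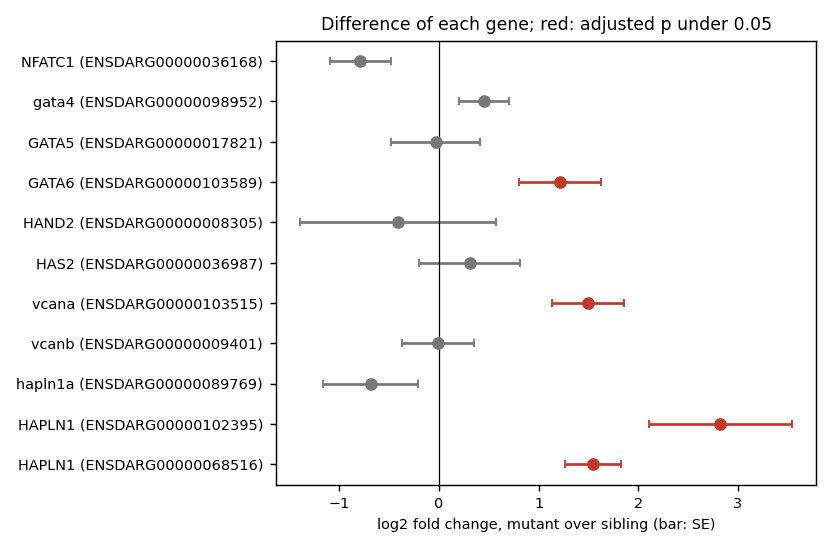
Log2 fold change of mutant over sibling (horizontal axis) with its SE for the 11 genes, red where the adjusted p was under 0.05. GATA6, vcana and both HAPLN1 genes lie between 1.22 and 2.82, and the other genes lie between -0.79 and 0.45 and are drawn in grey.

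Ratios of the counts of 2 genes in the same library do not depend on how libraries are scaled. These ratios were chosen after the values were seen and are given as a description, with no test. The ratio of HAPLN1 (ENSDARG00000068516) to hapln1a was 0.589, 0.86, 0.318 and 1.35 in mutant replicates 1 to 4, against 0.137, 0.144, 0.127 and 0.105 in sibling replicates 1 to 4. It varied little among siblings and was higher in every mutant library. The ratio of vcana to vcanb was 0.239, 0.246, 0.267 and 0.88 in the mutants, against 0.188, 0.0907, 0.114 and 0.0475 in the siblings. Both ratios were highest in mutant replicate 4, the library where hapln1a and vcanb were low.

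hapln1a and vcanb were both lowest in mutant replicate 4, and their ratio separated the groups. It was 1.06, 0.978, 1.52 and 0.96 in mutant libraries, against 2.09, 1.66, 1.94 and 1.84 in sibling libraries. In the RefSeq annotation of the assembly GRCz12tu, vcana lies next to hapln1a and vcanb next to hapln1b, with 0 protein-coding genes starting between them. The ratio of GATA6 to GATA5 was 2.28 to 3.23 in the mutants, against 0.5 to 1.83 in the siblings, while that of GATA6 to gata4 overlapped between the groups.

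**Figure D3:**
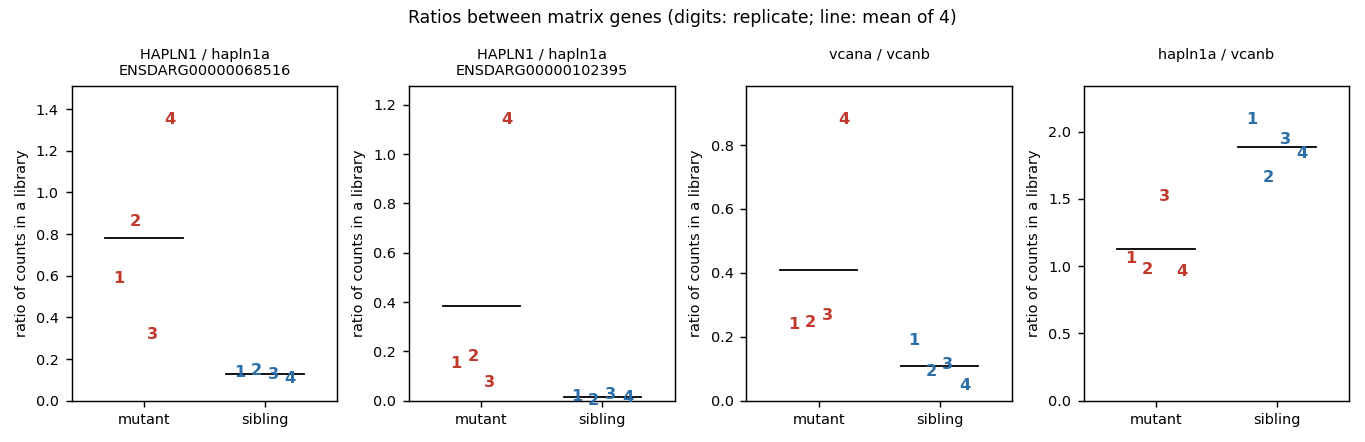
Ratio of the counts of 2 matrix genes within each library (vertical axis, linear from 0) in mutant (left) and sibling (right) libraries, each digit being 1 library by its replicate number and the line the group mean. The ratios were chosen after the values were seen, and the levels of both HAPLN1 genes and vcana already did not overlap. In each panel the groups are apart. The ratio of hapln1a to vcanb is the one that is lower in the mutants, at 0.96 to 1.52 against 1.66 to 2.09.

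Among genes that make and degrade hyaluronan and proteoglycans, as many rose as fell. Of 36 tested, 4 rose, 4 fell and 28 did not pass. The share called was 22.2%, near the 21.3% over all genes tested, and the median log2 fold change was 0.04, against 0.00 over all genes. UGDH (ENSDARG00000019838), which makes the glucuronic acid precursor of hyaluronan and other glycosaminoglycans, stood at 65.42, 78.02, 68.65 and 90.08 CPM in the mutants, against 26.94, 30.63, 24.22 and 24.74 CPM in the siblings. It rose by 1.50 ± 0.183 on the log2 scale (edgeR adjusted p = 5.34e-05), with no overlap.

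The hyaluronidase gene HYAL1 (ENSDARG00000059916) averaged 62.03 ± 14.4 CPM in the mutants and 13.84 ± 2.52 CPM in the siblings (SD, n = 4 each; log2 fold change 2.16 ± 0.233). HYAL2 (ENSDARG00000059931), another hyaluronidase gene, rose by 1.39 ± 0.222, while the second HYAL2 gene (ENSDARG00000062997), at 0.54 ± 0.193, did not pass (edgeR adjusted p = 0.063). The chondroitin synthase gene CHSY1 rose by 1.06 ± 0.191. Among the genes that fell, XYLT1 (-1.29 ± 0.202) encodes the enzyme that starts glycosaminoglycan chains on proteoglycans such as versican. The brain proteoglycan gene NCAN (ENSDARG00000005783) fell by 1.53 ± 0.382, and ncana, at -1.86 ± 0.717, did not pass. The calls of ADAMTS15 (ENSDARG00000029124), a protease gene of the proteoglycan-cleaving family (-3.79 ± 1.09), and HYAL3 (-1.98 ± 0.647) were lost on leaving out single libraries. For ADAMTS15 these were mutant replicate 1, sibling replicate 1 and sibling replicate 3, and for HYAL3 they were all but mutant replicate 3 and sibling replicate 2. Without mutant replicate 2 the log2 fold change of ADAMTS15 was -6.64. The second ADAMTS15 gene (ENSDARG00000033544), at -1.55 ± 1.39, did not pass.

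Other genes known from endocardial and valve development moved in both directions. Of 57 tested, 3 rose, 7 fell and 47 did not pass. The share called was 17.5%, below the 21.3% over all genes tested, and the median log2 fold change was -0.22, against 0.00. TBX20 (ENSDARG00000005150), a T-box factor of heart muscle and endocardium, stood at 15.40, 35.01, 51.49 and 25.15 CPM in the mutants, against 1.70, 3.53, 5.63 and 15.10 CPM in the siblings. The log2 fold change was 2.28 ± 0.569 (edgeR adjusted p = 0.0122), and the highest sibling library, replicate 4, almost reached the lowest mutant library. Without sibling replicate 4 it was 3.12, and without a filter on low counts the call was lost (edgeR adjusted p = 0.0838). The Notch ligand gene jag1b rose by 0.91 ± 0.247, a call lost without mutant replicate 2.

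Both fibronectin genes tested fell, while TGFBR2 and BMPR2 each fell at 1 of their 2 identifiers. TGFBR2 (ENSDARG00000059363), a receptor of the TGF-beta signals that drive valve mesenchyme, averaged 37.21 ± 18.6 CPM in the mutants and 119.1 ± 25.3 CPM in the siblings (log2 fold change -1.68 ± 0.295). The second TGFBR2 gene (ENSDARG00000034541) averaged 97.5 CPM in the mutants and 67.49 CPM in the siblings and did not pass (0.53 ± 0.241, edgeR adjusted p = 0.14). BMPR2 (ENSDARG00000020057), a receptor gene for BMP ligands, fell by 1.20 ± 0.277, and the second BMPR2 gene (ENSDARG00000011941), at 0.02 ± 0.232, did not pass (edgeR adjusted p = 0.969). ERBB2, which encodes a co-receptor for neuregulin, fell by 0.86 ± 0.178. The fibronectin genes FN1 (ENSDARG00000006526) and FN1 (ENSDARG00000019815) fell by 1.51 ± 0.223 and 1.03 ± 0.186. The endothelin gene edn1 fell by 1.40 ± 0.392, a call lost without mutant replicate 2 or sibling replicate 4. PKD2, a calcium channel gene, and klf2a, a factor induced by flow, were named after their values were seen. Their calls, at 0.80 ± 0.262 and -0.84 ± 0.282, were lost on leaving out 5 and 6 single libraries.

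The calcineurin pathway that acts on Nfatc1 had genes moving both ways. Of 38 tested genes, 3 rose, 7 fell and 28 did not pass. The 28 included the tested genes of calcineurin itself, ppp3ca, ppp3cb, ppp3cca, PPP3CC and both PPP3R1 genes (edgeR adjusted p from 0.178 to 0.928). The share called was 26.3%, against 21.3% over all genes tested (9.92% higher and 11.4% lower), and the median log2 fold change was -0.36, against 0.00. DYRK1A (ENSDARG00000063570), a kinase gene whose product turns NFAT factors off, averaged 58.75 ± 6.34 CPM in the mutants and 144.3 ± 15.3 CPM in the siblings (log2 fold change -1.30 ± 0.154). The second DYRK1A gene (ENSDARG00000023814), at 0.01 ± 0.14, did not pass. The kinase gene gsk3bb, of the same action on NFAT, fell by 1.49 ± 0.311, and GSK3B, at 0.19 ± 0.175, did not pass. Of the 7 other NFAT family genes tested, 3 fell and 4 (NFATC2, nfatc2b, nfatc3b and NFATC4) did not pass, with edgeR adjusted p from 0.0972 to 0.905. NFATC3 fell by 1.25 ± 0.219, and nfat5a, which is not under calcineurin, by 0.85 ± 0.173. The third, nfat5b (-1.97 ± 0.539), named to complete the count, lost its call without mutant replicate 2 or sibling replicate 3. The calmodulin genes were split, with calm3b (0.84 ± 0.143) and calm1a (0.53 ± 0.136) higher and calm1b (-2.21 ± 0.384) lower. The others tested, calm2a (0.41 ± 0.187), CALM2 (0.22 ± 0.191) and calm3a (-0.35 ± 0.286), did not pass. ITPR1 (ENSDARG00000074149), a channel gene for calcium release, rose by 1.50 ± 0.276. The second ITPR1 gene (ENSDARG00000014655) averaged 13.3 CPM in the mutants and 27.33 CPM in the siblings and did not pass (-1.04 ± 0.361, edgeR adjusted p = 0.0535). STIM1 (ENSDARG00000060723) fell by 0.85 ± 0.219, and the second STIM1 gene (ENSDARG00000061560), at -0.43 ± 0.367, did not pass.

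Among partners and relatives of the GATA and Hand factors, 3 of 35 tested genes rose, 4 fell and 28 did not pass. The share called was 20%, near the 21.3% over all genes tested, and the median log2 fold change was -0.09, against 0.00. Of the 4 E protein genes tested, which encode dimerisation partners of bHLH factors such as Hand2, TCF12 (-1.11 ± 0.209), TCF4 (-1.61 ± 0.325) and tcf3a (-0.67 ± 0.149) fell. The other, tcf3b, averaged 310 CPM in the mutants and 328.8 CPM in the siblings and did not pass (-0.09 ± 0.143, edgeR adjusted p = 0.744). SRF (ENSDARG00000102867), a factor gene of muscle and the cytoskeleton, fell by 1.80 ± 0.209, and the second SRF gene (ENSDARG00000053918), at -0.46 ± 0.162, did not pass (edgeR adjusted p = 0.0575). SMAD4 (ENSDARG00000012649), the shared mediator of TGF-beta and BMP signals, rose by 1.49 ± 0.234, while the second SMAD4 gene (ENSDARG00000075226), at -0.29 ± 0.259, did not pass. ISL1 (ENSDARG00000004023), a factor gene of heart precursors and neurons, rose by 1.67 ± 0.38. TBX20 was the third riser.

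**Figure D4:**
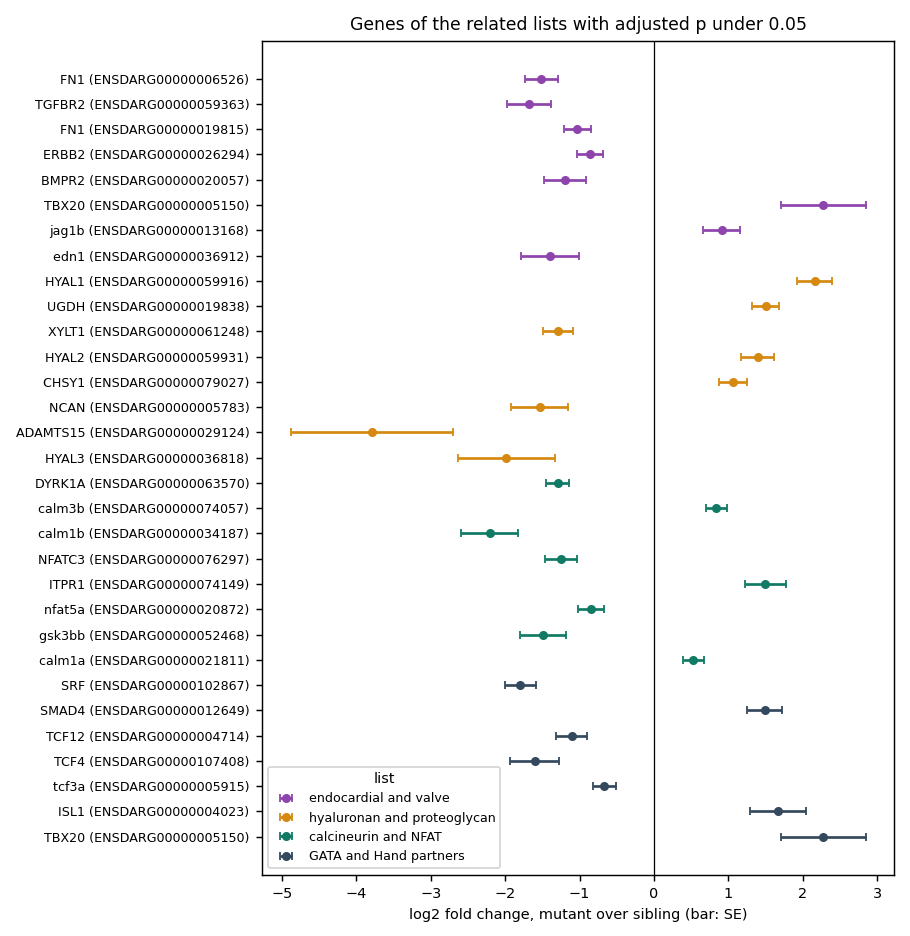
Log2 fold change of mutant over sibling (horizontal axis) with its SE for the genes of the 4 related lists with an adjusted p under 0.05, at most 8 per list, coloured by list (TBX20 is in both the first and the last list). UGDH, HYAL1, HYAL2 and CHSY1 lie above 0, and the FN1 genes, TGFBR2, ERBB2 and BMPR2 below 0.

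Summed markers of some other cells differed along with some of these genes. Of 12 endothelial symbols 10 were matched, to 11 genes, none at 0 in all libraries. Their sum was 2467, 3378, 4177 and 4910 CPM in mutant replicates 1 to 4, against 2698, 2521, 3833 and 4222 CPM in sibling replicates 1 to 4. It was thus higher in replicates 3 and 4 than in replicates 1 and 2 of both groups. Of these 11, clec14a rose (0.93 ± 0.2), sox18 (-1.14 ± 0.214) and CLDN5 (ENSDARG00000043716, -0.60 ± 0.191) fell and 8 did not pass. The second CLDN5 gene (ENSDARG00000014059) was among the 8, at -0.19 ± 0.226. Only cldn5b was listed, and the names do not tell which CLDN5 gene it is. The share called was 27.3%, against 21.3% over all genes tested. The sort marker kdrl (ENSDARG00000105215) averaged 1137 ± 396 CPM in the mutants, against 801.3 ± 212 CPM in the siblings (log2 fold change 0.50 ± 0.241, edgeR adjusted p = 0.167) and passed as higher without mutant replicate 1. The heart muscle list, 12 of 15 symbols matched to 17 genes, summed to 237.4, 170.1, 175.3 and 30.16 CPM in mutant replicates 1 to 4, against 416.1, 127.5, 255.6 and 232.6 CPM in sibling replicates 1 to 4. Its defining gene MYL7 was at 0.329 CPM in mutant replicate 4, and at 3.84 to 17.66 CPM in the other mutants, against 3.82 to 14.82 CPM in the siblings. MYH7 was at 0 CPM in that library and at 5.995 to 8.438 CPM in the other mutants, against 10.97 to 60.99 CPM in the siblings. Its log2 fold change of -2.71 ± 0.925 did not pass (edgeR adjusted p = 0.0725). The largest genes of the list in the siblings were MYH6 (ENSDARG00000079564, 99.28 CPM), MYH7 (36.15 CPM) and actc1a (32.29 CPM). In mutant replicate 4 this MYH6 gene was at 0.575 CPM and actc1a at 18.82 CPM. TNNI1 (ENSDARG00000000474) was at 1.397 CPM there, against 0 to 1.001 CPM in the siblings. Of 14 tested, this TNNI1 gene rose (3.50 ± 1.08), TNNT2 (ENSDARG00000020610) fell (-2.52 ± 0.712) and 12 did not pass. Among the 12 was the second TNNI1 gene (ENSDARG00000052708), at -2.05 ± 0.915. The share called was 14.3%, against 21.3% over all genes tested. The median log2 fold change was -0.99, with 10 of the 14 below 0 and 4 above. Mutant replicate 4 was thus the lowest library for the heart muscle sum, though not for every marker, as well as for hapln1a and vcanb. The part of heart muscle RNA in those values was not tested.

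Mesenchyme and neural crest markers, all 14 symbols matched to 15 genes, summed to 428.9 to 511.9 CPM in mutants, against 903.7 to 1436 CPM in siblings, with no overlap. Of 14 tested, 6 fell, 0 rose and 8 did not pass. The share called was 42.9%, against 21.3% over all genes tested (9.92% higher and 11.4% lower). The collagen genes col1a1a and COL1A2, which both fell, held most of the sum, at 460.9 and 411.2 CPM in the siblings. The others that fell were PDGFRA (-2.68 ± 0.308), TFAP2A (-1.59 ± 0.303), PRRX1 (ENSDARG00000033971, -1.40 ± 0.369) and foxc1b (-0.92 ± 0.31). SOX10 (0.69 ± 0.509), FOXD3 (-0.45 ± 1.18) and crestin (-0.70 ± 1.05) were among those that did not pass. Notochord and cartilage markers, 9 symbols matched to 11 genes, summed to 402.2 to 782.8 CPM in mutants, against 814.1 to 1338 CPM in siblings, again with mutant replicate 4 lowest. Of 10 tested, 1 rose, 2 fell and 7 did not pass (30% called). The COL2A1 genes held most of this sum, at 599.2 and 238.9 CPM in the siblings. The lower of them (ENSDARG00000011407) fell by 1.08 ± 0.168, and the other (ENSDARG00000069093), at -0.53 ± 0.254, did not pass. SHH (ENSDARG00000038867), with 0 to 23 counts in a sibling library, rose by 2.76 ± 0.797. The second SHH gene (ENSDARG00000068567), at -0.31 ± 0.4, and tbxta, at -0.24 ± 0.872, did not pass. Both sums were lower in the mutants, though not every marker fell. In the same libraries vcana and the HAPLN1 genes were higher, and the FN1 genes and TGFBR2 (ENSDARG00000059363) were lower. The part of these cells in any of those differences was not tested. Endoderm, which also expresses Gata5 and Gata6, had all 10 marker symbols matched, to 12 genes. They summed to 79.97 to 108.4 CPM in mutants, against 88.16 to 178.5 CPM in siblings. The largest in the siblings were FOXA2 (46.15 CPM) and PROX1 (29.2 CPM). Both CXCR4 genes of this list were also counted among the other endocardial and valve genes, so the sum is not of endoderm alone. Of 9 tested, 0 passed, against 21.3% over all genes tested. Skeletal muscle markers, 9 of 11 symbols matched, summed to 176 to 385.5 CPM in mutants and 130.8 to 227.5 CPM in siblings. Of 9 tested, 1 rose, 0 fell and 8 did not pass (11.1% called). Erythroid markers, 7 of 9 symbols matched, summed to 3816 to 5042 CPM in mutants and 7892 to 14240 CPM in siblings, with no overlap. Of 7 tested, 0 rose, 6 fell and 1, gata1a at 0.74 ± 0.286, did not pass. The share called was 85.7%, against 21.3% over all genes tested.

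**Figure D5:**
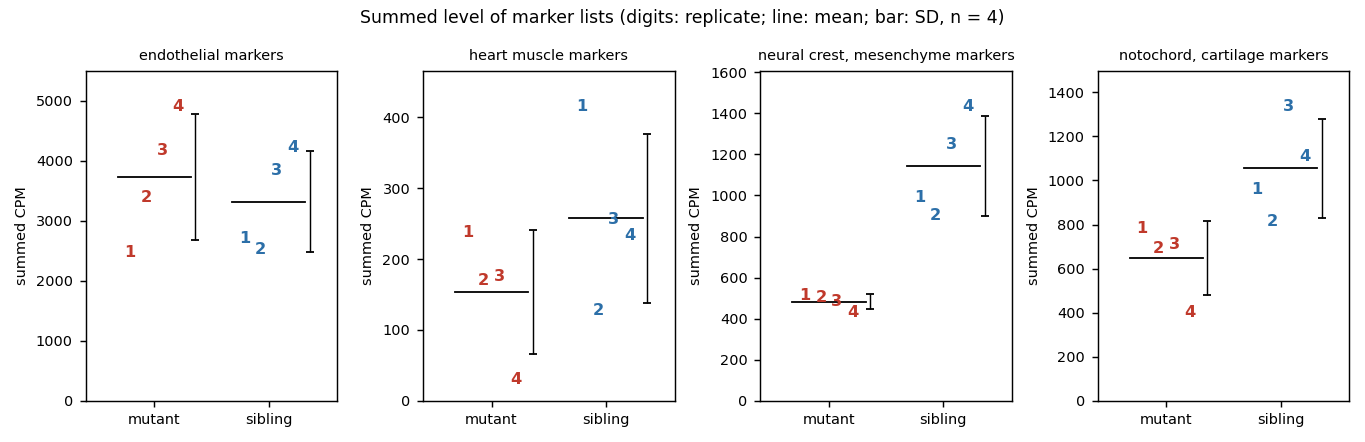
Summed CPM of 4 marker lists (vertical axis, linear from 0) in mutant (left) and sibling (right) libraries, each digit being 1 library by its replicate number, with the group mean as a line and the SD as a bar. The endothelial sums overlap, the mesenchyme and notochord sums are lower in every mutant library, and mutant replicate 4 has the lowest heart muscle sum at 30.16 CPM.

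The genes whose log2 CPM was most like that of NFATC1 over the 8 libraries, among 10461 with a symbol and an average log2 CPM of at least 3, were AVL9 (Pearson r = 0.978, Spearman rho = 0.929), rabgef1l (r = 0.962, rho = 0.929) and the actin crosslinker gene flna (r = 0.962, rho = 0.881). They were picked for this likeness, so no test is given, and the libraries share depth and group with NFATC1. Their log2 fold changes, as a description, were -0.29 ± 0.208 for AVL9, -0.77 ± 0.331 for rabgef1l and -0.47 ± 0.154 for flna.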

How the data were processed

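Total RNA of kdrl-positive cells from 4 mutant and 4 sibling samples was depleted of ribosomal RNA and made into stranded libraries, per the labels' protocols. Per the submitters' processing notes, the tools were STAR 2.4.2a, Cufflinks 2.2.1, Picard and Trim Galore, with the genome build GRCz10. How reads were counted, with which strand setting and which annotation, was not stated in the sources used here. The authors deposited raw counts for each Ensembl gene, which are whole numbers and show no sign of normalization. Symbols came from a table of Ensembl names (29178 of 31901 genes). Symbols in capitals can be shared by paralogues, and reads of near-identical copies may be split between identifiers. A symbol of a related or marker list with no exact match was matched without its paralogue letter. These lists can therefore hold paralogues that were not listed, as for CLDN5, TNNI1, TNNT2 and SMAD4.

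Counts were tested with edgeR 4.0.16 in R 4.3.3 (TMM, filterByExpr with smallest count 10 and smallest total 15, glmQLFit with robust=TRUE, glmQLFTest, group as the only factor) and adjusted after Benjamini and Hochberg over all genes tested. The SE is the log2 fold change divided by the square root of F. DESeq2 1.42.0, other scalings and filters, a replicate block and leaving out libraries were alternatives. The script was tested on simulated data. Named genes were the 11 members, the up to 8 genes with the smallest p of each related list, SF3B1, kdrl and the 3 genes most correlated with NFATC1. PKD2, klf2a, STIM1, nfat5b and the genes of the related lists that did not pass were named after their values were seen. So were MYL7, MYH7 and all other single genes of the marker lists except kdrl. Members and lists were chosen with earlier results of these data known. Replicates of a group differed by 13.99 to 47.24 in chi-square per degree of freedom, which is more than counting error. This does not show whether they came from separate samples of embryos. Each library counted once. Intervals and floors (3 counts) cover counting error only.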

Additional observations from a re-analysis of the deposited data

Results flagged for a closer look

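GATA5 was flagged in both groups because 1 library lay apart from the other 3, relative to the range of its group. Mutant replicate 1 was at 8.44 CPM while the nearest other mutant library was at 6.25 CPM, a gap of 0.994 of the group's range. That share was high because mutant replicates 2 to 4 lay at 6.23 to 6.25 CPM. The counts were 108 in mutant replicate 1 and 78, 65 and 76 in mutant replicates 2 to 4. Sibling replicate 4 was at 13.17 CPM while the nearest other sibling library was at 5.11 CPM, a gap of 0.939 of the range. In all, 22 groups of 4 libraries were examined, and chance marks about 1 in 20. The cause was not tested.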

How the results depend on the processing

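The members called higher stayed at 3 to 4 under all 16 alternatives, and those called lower were 0 except for NFATC1, which made it 1 with DESeq2, with the replicate block, without mutant replicate 4 and without sibling replicate 1, so that leaving out libraries gave 0 to 1. With the replicate block NFATC1 was at -0.80 (edgeR adjusted p = 0.0291), and over its alternatives the adjusted p ran from 0.0291 to 0.228. Same-numbered libraries did not deviate together over all genes (correlations of -0.039 to 0.053, with 2 of 8 libraries closest to their own number). A measure over all genes cannot exclude pairing that shows in some of them, and the labels do not state any. The level of kdrl climbed with replicate number from 689.8 to 1625 CPM in the mutants and from 627.6 to 1064 CPM in the siblings. The replicate block also gave 5 higher genes among the GATA and Hand partners, in place of 3, ended the calls of HYAL3, PKD2 and klf2a, and made kdrl pass as higher. The call of klf2a was also lost with RLE, total-count and upper-quartile scaling. GATA6 was weaker with total counts only (1.21, adjusted p = 0.0548) and without mutant replicate 4 and sibling replicate 2 together (0.91, adjusted p = 0.0556). GATA5 turned sign with upper-quartile scaling (0.038), the replicate block (0.12) and on leaving out libraries (-0.20 to 0.48). vcanb turned sign with RLE size factors (0.006), DESeq2 (0.006), upper-quartile scaling (0.059), without both libraries that stood apart (0.15) and on leaving out 1 library (-0.20 to 0.29), and HAS2 on leaving out 1 library (-0.15 to 0.66). None of these passed. On leaving out single libraries, the higher and lower counts were 1 to 4 and 5 to 10 for other endocardial genes, 4 to 5 and 2 to 4 for hyaluronan genes, 3 to 4 and 7 to 9 for calcineurin genes, 3 to 5 and 4 to 5 for GATA and Hand partners, and 1305 to 1804 and 1616 to 2093 for all genes. Upper-quartile scaling gave 2062 higher and 1806 lower genes, against 1814 and 2088 with TMM. The causes were not tested. HAND2, HAS2 and GATA5 had the lowest average levels of the 11 genes, with 0 to 56, 29 to 132 and 48 to 164 counts in a library.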
